A study of Mus musculus with 12 samples.

Results

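The comparison set mouse cells at day 14 of differentiation against mouse embryonic stem cells (mESC), across all genes on a 1-colour Agilent array. Its members were chosen by their labels: 4 arrays of day 14 RNA and 4 arrays of mESC RNA, 8 of the 12 arrays of the series. Total RNA was copied into Cy3-labelled RNA from 500 ng, and each gene was read as the brightness of its probes. Per the labels, cells were seeded on a coating of crosslinked elastin-like polypeptide (ELP), an engineered polymer built on the repeats of elastin, and grown for 2 days without LIF, the cytokine that holds mouse stem cells undifferentiated. They then spent 12 days in a medium with 2.5% serum replacement, for which no cardiac factor is listed. The labels repeat this culture text for the mESC samples too, and no source used here gives the state in which the stem cells were harvested. They name no genotype, no line and no sorting of cells, and do not say whether the 4 samples of a group were separate cultures, so the p-values weigh only sample-to-sample spread, part or all of which could be technical.

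Embryonic stem cells are held in place by a small circuit of transcription factors around Pou5f1, Sox2 and Nanog. When that circuit is released the cells can form all 3 germ layers: mesoderm gives heart, vessel, blood and connective tissue, endoderm gives liver and gut, and ectoderm gives nerve and skin. A dish of differentiating cells is therefore usually a mixture, and the marker genes of each lineage give a reading of what it holds. In a bulk sample of this kind, more cells of a type and more RNA per cell cannot be told apart.

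Levels are log2 signals relative to each array's own 75th percentile, so a difference of 1 is a 2-fold difference. A gene was tested when its probe was well above background on 3 or 4 arrays of any group of the series (mESC, day 9 or day 14), and was called at a Benjamini-Hochberg adjusted p under 0.05 in limma with a change of at least 2-fold. Of 20869 genes tested, 4749 were higher at day 14 (22.8%) and 5031 were lower (24.1%), or 46.9% in all. Among the 15555 of them with a gene symbol, the shares were 24.4% higher, 24.6% lower and 49.1% in all. Counts of called members are read against these shares. Of the genes tested 260 were above background on fewer than 3 arrays both in mESC and at day 14, and 52 of these were called. The higher share of the called genes was 48.6%, and scaling each array to its median in place of its 75th percentile lowered it to 36.3%. The median change of all genes was -0.19, against -0.51 with median scaling and 0.10 with another background correction (normexp). Large fitted changes were more often rises, as 598 named genes rose and 207 fell by at least 5 on the log2 scale. These counts rest in part on dim signals. Of the named genes called, 1221 were below background on all mESC arrays and 320 on all day 14 arrays. Arrays of a group correlated at no less than 0.9948, and arrays of different groups at 0.797 to 0.804. Each group was hybridised on a slide of its own, so the effects of slide and of group cannot be told apart.

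In the pluripotency network, 22 of 23 tested genes fell and none rose, and the median change was -4.97. Pou5f1, which encodes the factor Oct4, lay at 5.21, 4.93, 5.18 and 5.24 on the mESC arrays and at -2.74, -2.81, -2.66 and -2.73 on the day 14 arrays. Nanog lay between 4.37 and 4.41 in mESC and between -3.81 and -3.55 at day 14, and Zfp42, a zinc finger gene used as a marker of the naive state, between 6.93 and 7.10 and between -0.79 and -0.49. The groups were far apart for all 3 genes, with changes of -7.88 ± 0.21 (SE), -8.07 ± 0.11 and -7.66 ± 0.12 and adjusted p-values of 1.38e-11, 1.25e-13 and 2.87e-13. The fall was as deep for Esrrb, an orphan receptor of the same circuit (-8.12), and smaller for Sox2 (-4.82), Klf4 (-3.16), the let-7 regulator Lin28a (-2.98) and Utf1 (-1.16). All 23 genes were still above background on every day 14 array. Klf2, the 1 member not called, has a pair of tested probes that disagreed, at -0.65 and -4.22.

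The Nanog promoter holds the octamer core TTTGCAT, the sequence read by Oct4, in the 150 bases before its start. The sequence, from RefSeq on GRCm38.p6 (chr6:122707339-122707488 on the plus strand), is shown because Nanog had the deepest fall but 1 among the network's genes; the capitals mark the core.
Nanog: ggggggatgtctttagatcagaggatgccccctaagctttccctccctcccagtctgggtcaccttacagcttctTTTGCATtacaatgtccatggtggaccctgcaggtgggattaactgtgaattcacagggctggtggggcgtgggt
The core, on either strand, lay within 250 bases before the start of 3 of 14 network genes with a promoter sequence, Nanog, Sox2 and Zfp42, and of 3.24% of the 12329 tested genes with one. It was in none of the 8 promoters of genes named Mcm and none of the 27 liver promoters. A match is a description of the letters, not a bound site.

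Germ cell genes and genes of the two-cell-like state, which mouse stem cells express in part, gave 18 lower and 2 higher of 20 tested, with a median of -4.70. Dazl, which encodes a germ cell RNA-binding protein, lay between 1.88 and 2.00 in mESC and between -5.38 and -4.91 at day 14, so that it fell by 7.07 ± 0.30. The helicase gene Ddx4 fell by 5.12. Zscan4c, a marker of the two-cell-like state whose probe may also read its near-identical neighbours, fell by 5.02. The 2 that rose, Rhox6 and Rhox9, are X-linked homeobox genes of placenta and gonad, with changes of 2.09 and 2.10. Of the 16 tested genes of the primed epiblast and primitive streak, the stages that follow the naive state in the embryo, 8 fell and 3 rose. Nodal (-5.98), its inhibitor Lefty2 (-6.13) and Eomes (-3.30) were lower, while brachyury, T, was not called, with a difference of -0.79. The growth factor gene Fgf5 rose at least 6.50-fold from below background.

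**Figure D1:**
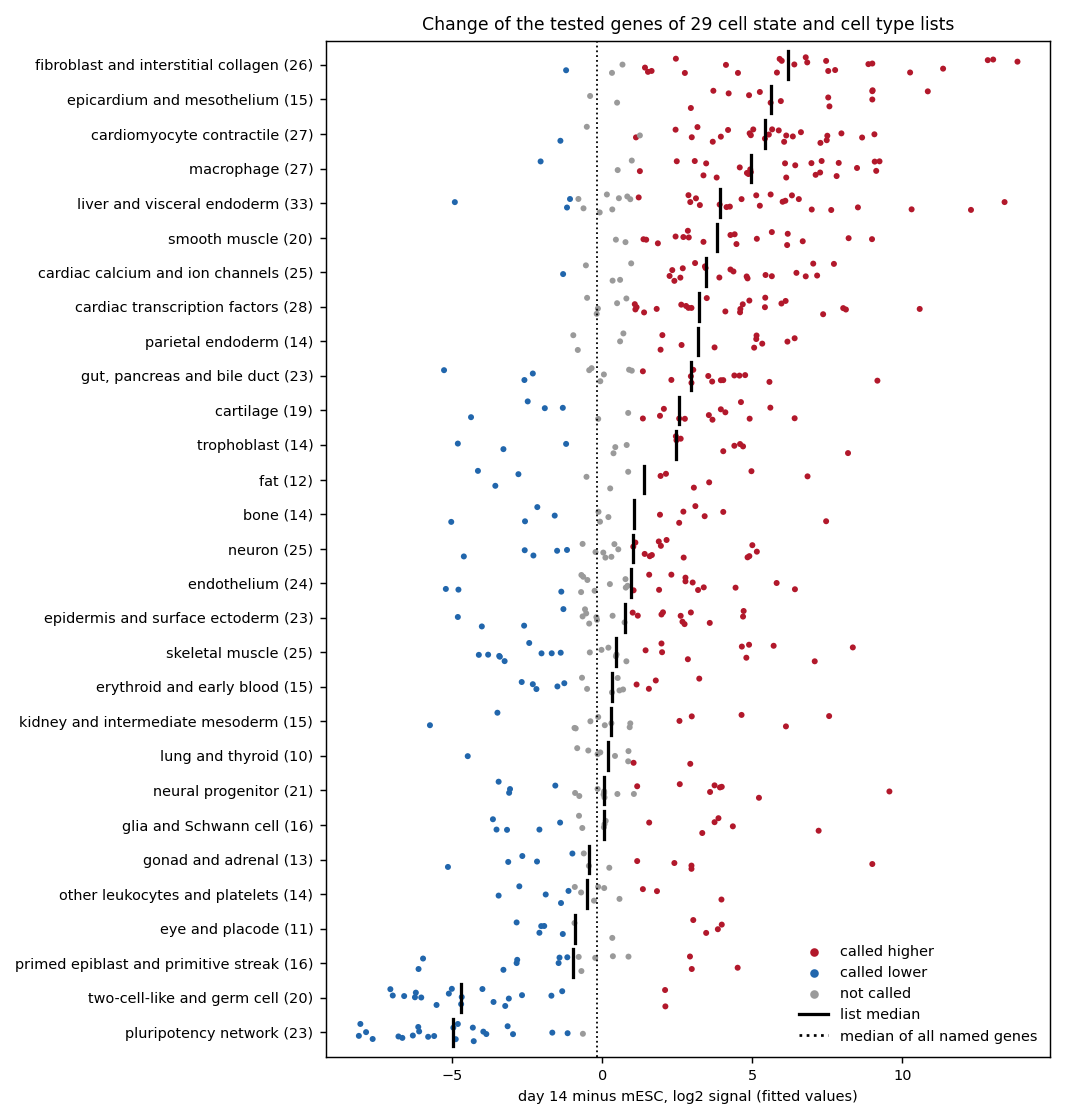
Each point is the change of 1 tested gene, day 14 minus mESC on the log2 scale, in 29 lists of cell states and cell types (number of tested genes in brackets), with the list median as a black bar and the median of all named genes, -0.17, as a dotted line. Fibroblast, epicardial, cardiac contractile and macrophage lists lie farthest to the right with medians of 6.19, 5.61, 5.42 and 4.95, the pluripotency list lies farthest to the left, and most other lists hold genes on both sides.

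The 26 cell type lists held 484 distinct tested genes, of which 288 were higher at day 14 and 75 lower, and 23 stood in more than 1 list. The lists were not uniform. In 7 of them, the 3 cardiac lists, smooth muscle, fibroblast, epicardium and macrophage, at least 80.0% of the tested genes rose and no more than 1 fell, whereas in others rises and falls were about equal. In each of the 7 lists 4 to 13 genes were below background on all mESC arrays, so they passed the filter only through later arrays, where they are high. Several defining markers were not tested, since they had no probe under that symbol or none above background: Pdx1 of pancreas, Nkx2-1 of lung and thyroid, Gfap of astrocytes, Prl3d1 of trophoblast giant cells and Rax and Six6 of the eye field.

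Heart muscle was represented from sarcomere to transcription factor. Of 27 tested contractile genes 24 rose and 1 fell, with a median of 5.42. Tnnt2, cardiac troponin T, lay at -1.39, -1.36, -1.25 and -1.45 on the mESC arrays and at 4.57, 4.86, 4.60 and 5.05 on the day 14 arrays, a rise of 6.13 ± 0.21 with an adjusted p of 9.28e-11. The atrial and fast cardiac myosin gene Myh6 rose from between -2.77 and -2.60 to between 4.32 and 4.75, by 7.27 ± 0.31. Actc1, cardiac actin, rose from between -3.18 and -3.07 to between 4.13 and 4.60, by 7.48 ± 0.18. For none of the 3 did the groups overlap, and on each the day 14 arrays 2 and 4 were higher than arrays 1 and 3. Both chamber types of light chain rose, the ventricular Myl2 by 6.06 and Myl3 by 8.66 and the atrial Myl7 by 5.03 and Myl4 by 5.42; Myl3 has a second tested probe at 1.44. The beta myosin gene Myh7 rose by 5.66. Csrp3, a sensor of stretch in the Z-disc, was at least 280-fold higher and Tcap, which caps titin, at least 101-fold, both from below background. The titin gene Ttn gave values from 0.79 to 5.42 over its tested probes. The 1 that fell was Xirp2 (-1.40; -0.12 and not called with the normexp background), and Lmod2 (1.25) and Myom2 (-0.52) were not called.

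Genes of excitation and calcium handling followed, with 20 of 25 tested higher, 1 lower and a median of 3.44. The ryanodine receptor gene Ryr2, the release channel of the sarcoplasmic reticulum, rose from between -3.35 and -3.24 to -1.39, -1.11, -1.03 and -0.70, by 2.24 ± 0.26. Atp2a2, the calcium pump that refills the same store, rose by 3.42 ± 0.24, although a less bright probe of it gave -1.14. The sodium-calcium exchanger Slc8a1 was at least 29.5-fold higher on its brightest probe, with a fitted difference of 0.24 on another probe that was lit on all 8 arrays. Sln and Pln, small inhibitors of the pump, were at least 52.4-fold and 13.9-fold higher. Cacna1g, a T-type calcium channel of pacemaking cells, was at least 87.5-fold higher, while Hcn4, the main pacemaker channel of the sinus node, differed by 0.96, just under the limit for a call.

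Of 28 tested cardiac transcription factors and natriuretic peptides 23 rose and none fell, with a median of 3.23. Nkx2-5 lay between -2.41 and -2.13 in mESC and at 0.25, 0.72, 0.38 and 1.03 at day 14, a rise of 2.87 ± 0.30. Tbx5 rose by 4.68 ± 0.12, from between -4.11 and -3.89 to between 0.54 and 0.81. Gata4 was at least 7.84-fold higher and Hand2 at least 65.8-fold, both from below background on every mESC array, and Ankrd1, a stretch-responsive cofactor of heart muscle, at least 353-fold. The 2 natriuretic peptide genes parted: Nppa was at least 35.6-fold higher, whereas Nppb differed by -0.15 ± 0.35 and its groups overlapped. Isl1, a marker of second heart field progenitors, rose by only 1.10 ± 0.24 and was not called without day 14 array 4 (0.96).

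The promoters of 5 of 23 contractile genes with a promoter sequence, Actc1, Myl3, Myl7, Ldb3 and Myom1, hold a CArG box, the site read by serum response factor, against 1.27% of the tested genes' promoters. The pair shown, 150 bases before the start from RefSeq on GRCm38.p6, has it in capitals for Actc1 (chr2:114052876-114053025 on the minus strand) and Myl3 (chr9:110763528-110763677 on the plus strand).
Actc1: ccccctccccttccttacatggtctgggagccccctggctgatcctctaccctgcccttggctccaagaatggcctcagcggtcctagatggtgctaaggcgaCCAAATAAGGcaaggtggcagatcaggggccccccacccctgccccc
Myl3: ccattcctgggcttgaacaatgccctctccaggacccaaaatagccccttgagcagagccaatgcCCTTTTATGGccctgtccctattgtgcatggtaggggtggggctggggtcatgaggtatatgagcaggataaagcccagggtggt
The box lies 47 bases before the start in Actc1 and 85 bases before it in Myl3. Srf itself, which encodes the factor, differed by 0.80 and was not called, and its partner Myocd was at least 32.1-fold higher.

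Skeletal muscle gave a split list, with 10 of 25 tested genes higher, 9 lower and a median of 0.45. Myod1, the master factor of skeletal muscle, lay between -5.13 and -4.91 in mESC and between -4.66 and -4.47 at day 14, a difference of 0.47 that was not called. Myog, which acts after it, rose by 1.99 ± 0.15, from between -4.83 and -4.38 to between -2.94 and -2.40, and the muscle creatine kinase Ckm differed by 0.80, not called. Genes of the skeletal contractile apparatus did not move together. Myl1, also used in the early heart, was at least 74.1-fold higher, the actin Acta1 at least 56.5-fold, and Tnni2 rose by 5.71, whereas the fast light chain Mylpf fell by 4.12, the release channel Ryr1 fell by 3.81 and Actn3 fell by 3.44. The probes of the fast myosin gene Myh4 disagreed in sign, at 4.80 and -4.09.

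Smooth muscle genes rose as a group, 18 of 20 tested with none lower and a median of 3.82. Cnn1, calponin, lay between -1.88 and -1.60 in mESC and at 3.20, 3.51, 3.25 and 3.65 at day 14, a rise of 5.15 ± 0.17. The smooth muscle myosin Myh11 rose by 4.41 ± 0.17, from between -5.49 and -4.81 to between -0.84 and -0.69. The light chain Myl9 rose by 8.99 and Tagln by 6.18. Acta2, smooth muscle actin, rose by 1.37 on the probe that stands for it and by 2.10, 8.66 and 10.06 on its other probes, so the size of its change depends on the probe.

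Fibroblast and interstitial collagen genes had the highest median of the cell type lists, 6.19, with 23 of 26 tested higher and 1 lower; 9 were below background on all mESC arrays. Col1a1, the main chain of type I collagen, lay between -0.94 and -0.81 in mESC and between 6.52 and 6.63 at day 14, a rise of 7.46 ± 0.09. Dcn, the proteoglycan decorin, lay below background between -7.21 and -7.10 in mESC and between 6.60 and 6.80 at day 14, at least 4270-fold higher. Col3a1 was at least 3310-fold higher and Postn at least 978-fold. Pdgfra, the receptor that marks mesenchymal progenitors, rose by 5.98 ± 0.06. The exceptions were Thy1, which fell by 1.21, and Fn1, fibronectin, at 3.39 to 3.52 and 3.71 to 3.86, a difference of 0.32 that was not called.

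Epicardium and mesothelium, the lining of the heart and body cavities, showed 13 of 15 tested genes higher and none lower, with a median of 5.61. Wt1, the factor that defines both, was at least 172-fold higher, from below background to between 1.89 and 2.18. Upk3b rose by 5.95 ± 0.22, while mesothelin, Msln, was already at 2.22 to 2.36 in mESC and differed by -0.41, not called. Tcf21, a factor of epicardial fibroblasts, was at least 53.4-fold higher and Cav1, the scaffold of caveolae, at least 534-fold.

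The skeletal tissues and fat gave partial lists. Of 19 cartilage genes 13 rose and 4 fell: Sox9 rose by 3.95 ± 0.17 and Col2a1 by 3.55 ± 0.06, but the cartilage proteoglycan Acan fell by 1.92. Of 14 bone genes 7 rose and 4 fell; Runx2 was at least 6.72-fold higher, while Sp7 was not called (0.20) and Bglap, osteocalcin, fell by 2.17. Alkaline phosphatase, Alpl, also a stem cell marker, fell by 5.04. Of 12 fat genes 6 rose and 3 fell: the factor Pparg rose by 2.12 and the lipid carrier Fabp4 by 6.84, but Plin1 was not called (0.86) and Adipoq went from above background on 3 mESC arrays to below it on all day 14 arrays, although with the normexp background its difference was 0.08.

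Endothelial genes were divided. Of 24 tested 12 rose and 3 fell, with a median of 0.94, and 2 of the classic markers were among those that fell. Pecam1, which mouse stem cells also express, lay at 0.26, 0.23, 0.39 and 0.40 in mESC and at -4.48, -4.46, -4.51 and -4.48 at day 14, so that it fell by 4.80 ± 0.10. The von Willebrand factor gene Vwf gave -5.22 on one tested probe and -5.27 on the other, the first from between 2.47 and 2.78 to between -2.71 and -2.40. In contrast VE-cadherin, Cdh5, was below background on every mESC array and reached -1.34 to -1.12, at least 17.6-fold higher. Kdr, a receptor for VEGF, rose by 1.89 ± 0.11, Flt1 by 3.19 and Emcn at least 20.0-fold, while Tek (0.77), Cldn5 (0.25) and Plvap (-0.70) were not called and Eng fell by 1.37.

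Of 15 erythroid and early blood genes 4 rose (26.7%) and 5 fell (33.3%), not far from the 24.4% and 24.6% of all named genes. With the normexp background 2 rose and 1 fell. The embryonic globin Hba-x was below background on every day 14 array, and Hbb-bh1 was above it on only 2 of them. Among the genes of the adult and embryonic red cell, Slc4a1 fell by 2.69, Klf1 fell by 1.5 and Gata1 fell to below background, but with normexp none of the 3 was called (-0.51, -0.25 and 0.17). Globin probes may read more than 1 of the near-identical copies. Of 14 tested markers of lymphocytes, granulocytes and platelets 3 rose and 5 fell; Cd3e (-0.28) and Mpo (-0.14) were not called.

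Macrophage genes stood apart from the other blood lists, with 24 of 27 tested higher, 1 lower and a median of 4.95. Csf1r, the receptor for the macrophage growth factor, lay between -7.51 and -6.78 in mESC and at 0.69, 0.60, 0.83 and 0.51 at day 14, at least 64.8-fold higher. Adgre1, the gene of the F4/80 antigen, was at least 152-fold higher, the complement gene C1qa at least 48.9-fold and the adaptor Tyrobp at least 299-fold. All 4 day 14 arrays showed these genes, with arrays 1 and 3 slightly above arrays 2 and 4. Ptprc, which encodes the pan-leukocyte antigen CD45, was at least 26.2-fold higher on its brightest probe. The factor Spi1 rose only from below background to between -5.11 and -4.76, at least 1.37-fold. The member that fell was Laptm5 (-2.06), and Cd68 was not called (0.51). Because 13 of the 27 genes were below background throughout mESC, they could be tested only through arrays of differentiated cells, and the count gives no support of its own.

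**Figure D2:**
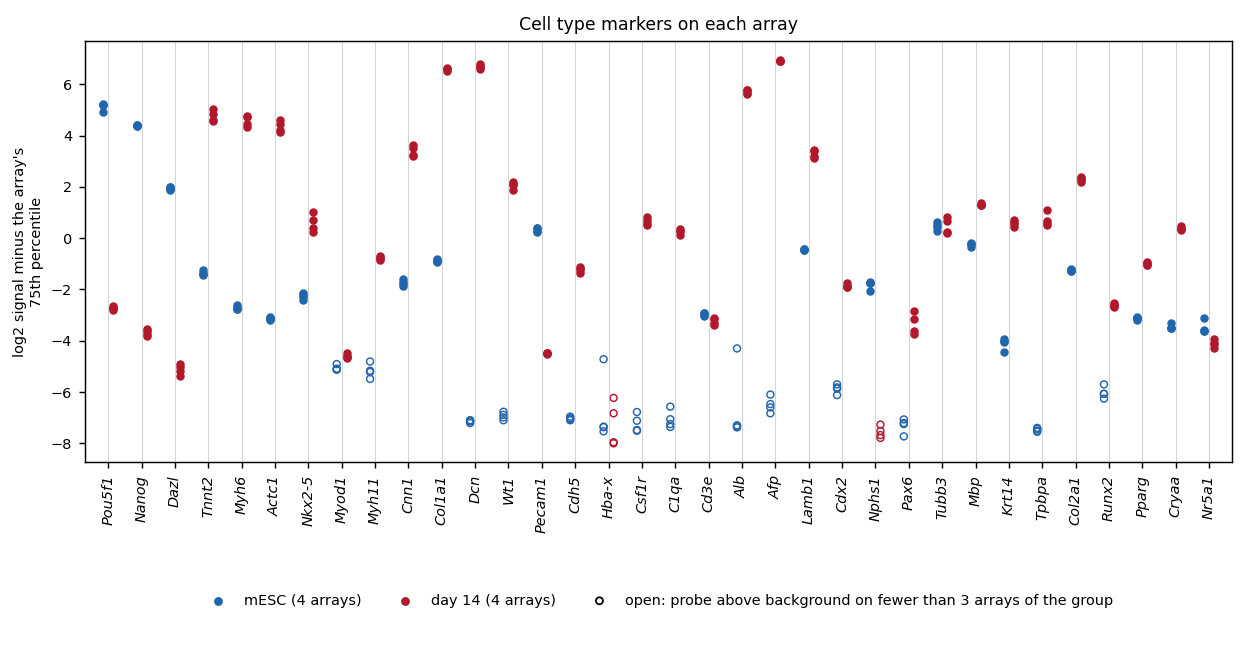
Level of 34 marker genes on each of the 8 arrays, as log2 signal minus the array's 75th percentile (blue, mESC; red, day 14; open points, probe above background on fewer than 3 arrays of the group). Tnnt2, Col1a1, Csf1r, Alb and Krt14 are higher on every day 14 array than on any mESC array, Pou5f1, Nanog and Pecam1 are lower on every one, and Myod1, Cd3e, Tubb3 and Nr5a1 differ little.

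Endoderm was represented by liver and yolk sac genes. Of 33 tested genes of liver and visceral endoderm, the yolk sac layer that secretes the same plasma proteins, 22 rose and 3 fell, with a median of 3.91. Afp, alpha-fetoprotein, lay between -6.83 and -6.10 in mESC and between 6.89 and 6.95 at day 14, at least 4950-fold higher. Alb, albumin, was below background on 3 mESC arrays (-7.30, -7.33 and -7.38) and above background at -4.30 on array 2, and reached 5.67, 5.62, 5.76 and 5.79 at day 14, a rise of 12.29 ± 0.58. The fibrinogen chain gene Fgb was at least 928-fold higher, Apoa1 at least 72.6-fold and Ttr, the carrier of thyroid hormone, at least 19.4-fold. Foxa2, a pioneer factor of endoderm, rose by 4.14 ± 0.19, from between -3.36 and -3.14 to between 0.76 and 0.99. Hnf4a, a factor that maintains hepatocytes, differed by 0.33 and was not called, nor was the factor gene Foxa3 (0.15) or the mature liver enzymes Tat (-0.80) and Cps1 (0.93). Fetub fell by 4.92.

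The liver promoters shown share GTTAAT, a short sequence known from liver promoters. They are shown because Afp, Alb and Fgb had the largest changes of the list; each is 150 bases before the start from RefSeq on GRCm38.p6, with the match in capitals, and Fgb holds it on the opposite strand as ATTAAC. Alb lies at chr5:90460720-90460869 on the plus strand, Afp at chr5:90490564-90490713 on the plus strand and Fgb at chr3:83049864-83050013 on the minus strand.
Alb: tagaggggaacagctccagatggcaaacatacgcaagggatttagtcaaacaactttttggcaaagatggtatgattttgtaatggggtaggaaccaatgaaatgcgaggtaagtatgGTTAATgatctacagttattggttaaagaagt
Afp: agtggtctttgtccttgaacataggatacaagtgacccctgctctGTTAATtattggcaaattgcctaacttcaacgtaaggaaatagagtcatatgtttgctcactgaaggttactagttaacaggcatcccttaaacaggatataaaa
Fgb: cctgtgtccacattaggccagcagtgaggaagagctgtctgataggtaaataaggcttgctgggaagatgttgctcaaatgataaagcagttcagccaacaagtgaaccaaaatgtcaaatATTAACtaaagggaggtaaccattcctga
The match begins 32 bases before the start in Alb, 105 in Afp and 29 in Fgb. On either strand and within 250 bases, GTTAAT was in 5 of 27 liver list promoters (Alb, Afp, Fgb, Fga and Apoc2) and in 4.45% of the promoters of tested genes.

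Parietal endoderm, the outer yolk sac layer that lays down basement membrane, showed 10 of 14 tested genes higher and none lower. Lamb1, a laminin chain, rose by 3.74 ± 0.07, Sparc by 2.64 ± 0.12 and the thrombin receptor Thbd at least 50.7-fold. For gut, pancreas and bile duct 14 of 23 genes rose and 3 fell: Fabp1, a lipid carrier of liver and gut, was at least 473-fold higher and the intestinal factor Cdx2 at least 11.4-fold, while Vil1, the protein of microvilli, was not called (0.05 ± 0.15) and Cdx1 fell to below background. Of these 23 genes 9 were below background on all mESC arrays, and among probes above background on all 8 arrays 4 rose. The median of this list was 2.95, and 0.75 with normexp. Lung and thyroid genes gave 2 higher and 1 lower of 10 tested; Sftpc (-0.47) and Foxe1 (0.87) were not called. In kidney and intermediate mesoderm 5 of 15 rose and 2 fell. Osr1 was at least 84.1-fold higher on its brightest probe and Wnt4 at least 55.5-fold, both also genes of other mesoderm, but Pax2 was not called (-0.40) and the podocyte gene Nphs1 fell to below background, at least 17.5-fold.

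Ectoderm lists held a part of their genes at higher levels. Of 21 neural progenitor genes 8 rose and 4 fell, with a median of 0.07 (-0.25 with median scaling), and with normexp 4 rose. Fabp7, a lipid carrier of radial glia, lay between -7.68 and -7.31 in mESC and at 1.66, 2.20, 1.71 and 2.53 at day 14, at least 167-fold higher. Pax6 was at least 4.07-fold higher, reaching -3.72, -3.16, -3.61 and -2.85, but Sox1, the earliest neural marker, fell to below background (its difference was 0.17 with the normexp background). Nestin, Nes, was not called (0.07 ± 0.08). Of 25 neuron genes 13 rose and 5 fell, with a median of 1.03: the microtubule protein genes Map2 and Dcx were at least 18.6-fold and 13.8-fold higher, while Tubb3 (0.03 ± 0.20) and Rbfox3 (0.40) were not called and the neurofilament Nefh fell by 4.62. The hindbrain and spinal cord factors Dbx1 and Neurog2 were at least 8.21-fold and 4.49-fold higher. With the normexp background 6 neuron genes were called higher, not 13. Of 16 glial genes 6 rose and 5 fell; Pmp22, also widely expressed in mesenchyme, rose by 7.21 and Mbp by 1.56.

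In epidermis and surface ectoderm 11 of 23 genes rose and 4 fell. The basal keratins Krt5 and Krt14 rose by 3.58 ± 0.12 and 4.69 ± 0.14, from between -3.48 and -3.32 to between -0.01 and 0.30 and from between -4.45 and -3.92 to between 0.44 and 0.69. Trp63, the master factor of stratified epithelium, differed by -0.18 and was not called, and E-cadherin, Cdh1, fell by 4.02, from between 4.38 and 4.44 to between 0.28 and 0.54. Of 14 trophoblast genes 8 rose and 3 fell: Tpbpa, a marker of the junctional zone of the placenta, was at least 67.2-fold higher and Elf5 at least 3.48-fold, while Eomes and Tfap2c, of trophoblast stem cells, gave -3.30 and -4.82. Of these 14 genes 6 were below background on all mESC arrays, and among probes above background on all 8 arrays 2 rose. Eye and placode genes (4 higher and 5 lower of 11) and gonad and adrenal genes (5 and 5 of 13) were split. The lens crystallin Cryaa rose by 3.85 ± 0.27; Nr5a1 (-0.62) and Amh (0.23) were not called and Star fell by 1.00, a call that was lost without mESC array 1 or 4 or day 14 array 1 or 4 (-0.99 to -0.91).

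Gene families were taken by symbol, so that each holds every tested gene with such a name. Those of the extracellular matrix came first. Of 40 tested collagen chains 34 rose and none fell, with a median of 4.05, including all 11 fibrillar chains. Collagens were spread over types: the sheet-forming Col8a2 was at least 598-fold higher, the basement membrane chain Col4a6 at least 376-fold on its brightest probe and the beaded filament chain Col6a3 at least 724-fold on its brightest probe, and Col7a1 (-0.09), the anchoring fibril of skin, was not called. Probes disagreed in size: Col4a6 gave 0.69 on a probe lit on all 8 arrays and at least 22.1-fold on another. A second Col6a3 probe gave at least 2.04-fold. All 5 lysyl oxidases, which crosslink collagen and elastin, rose, with Lox at least 193-fold higher. Among small leucine-rich proteoglycans 9 of 12 rose and none fell, led by Dcn, Lum (at least 2870-fold) and Ogn (at least 756-fold). Below background on all mESC arrays were 12 of the 40 collagens, 3 of the 5 lysyl oxidases and 6 of the 12 proteoglycans. These could be tested only through arrays of differentiated cells. Among probes above background on all 8 arrays, 18 collagens, 2 lysyl oxidases and 2 proteoglycans rose. Of the fibulin, fibrillin and microfibril genes 14 of 19 rose and none fell; Mfap2 rose by 10.50, Fbn1 by 5.61 and elastin, Eln, by 5.36. Laminins (3 of 9 higher, 1 lower) and integrins (12 of 22 higher, 6 lower) were less even: Lama4 rose by 5.16, Itga4 was at least 17.0-fold higher and Itgb7 fell by 5.27.

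The enzymes that cut matrix rose with it. Of 22 ADAMTS and ADAMTS-like genes 19 rose and 2 fell, with Adamts5 at least 193-fold higher. However, 10 of the 22 were below background on all mESC arrays, and among probes above background on all 8 arrays 8 rose. Of 10 matrix metalloproteinases 7 rose and 1 fell, with Mmp2 at 5.17 and Mmp17 at -2.07. By comparison 5 of 17 ADAM genes rose and none fell. Among inhibitors, 2 of 4 Timp genes rose (Timp3 by 5.88 and Timp2 by 5.85), and 25 of 35 serpins rose and 6 fell (15 and 2 with normexp). Below background on all mESC arrays were 14 of the 35 serpins. The serpins included plasma proteins of liver, such as Serpina6 and Serpind1, at least 153-fold and 104-fold higher; near-identical members such as Serpina1c and Serpina1d may share probes. Of 6 IGF binding proteins 5 rose, Igfbp1 at least 1570-fold, and Igfbp2 fell by 2.36. Of 22 apolipoproteins 7 rose (31.8%) and 5 fell (22.7%), with a median of -0.01. These shares are near those of all named genes, 24.4% and 24.6%. Apoa1 and Apoh (at least 37.0-fold) rose and Apod fell by 6.87.

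**Figure D3:**
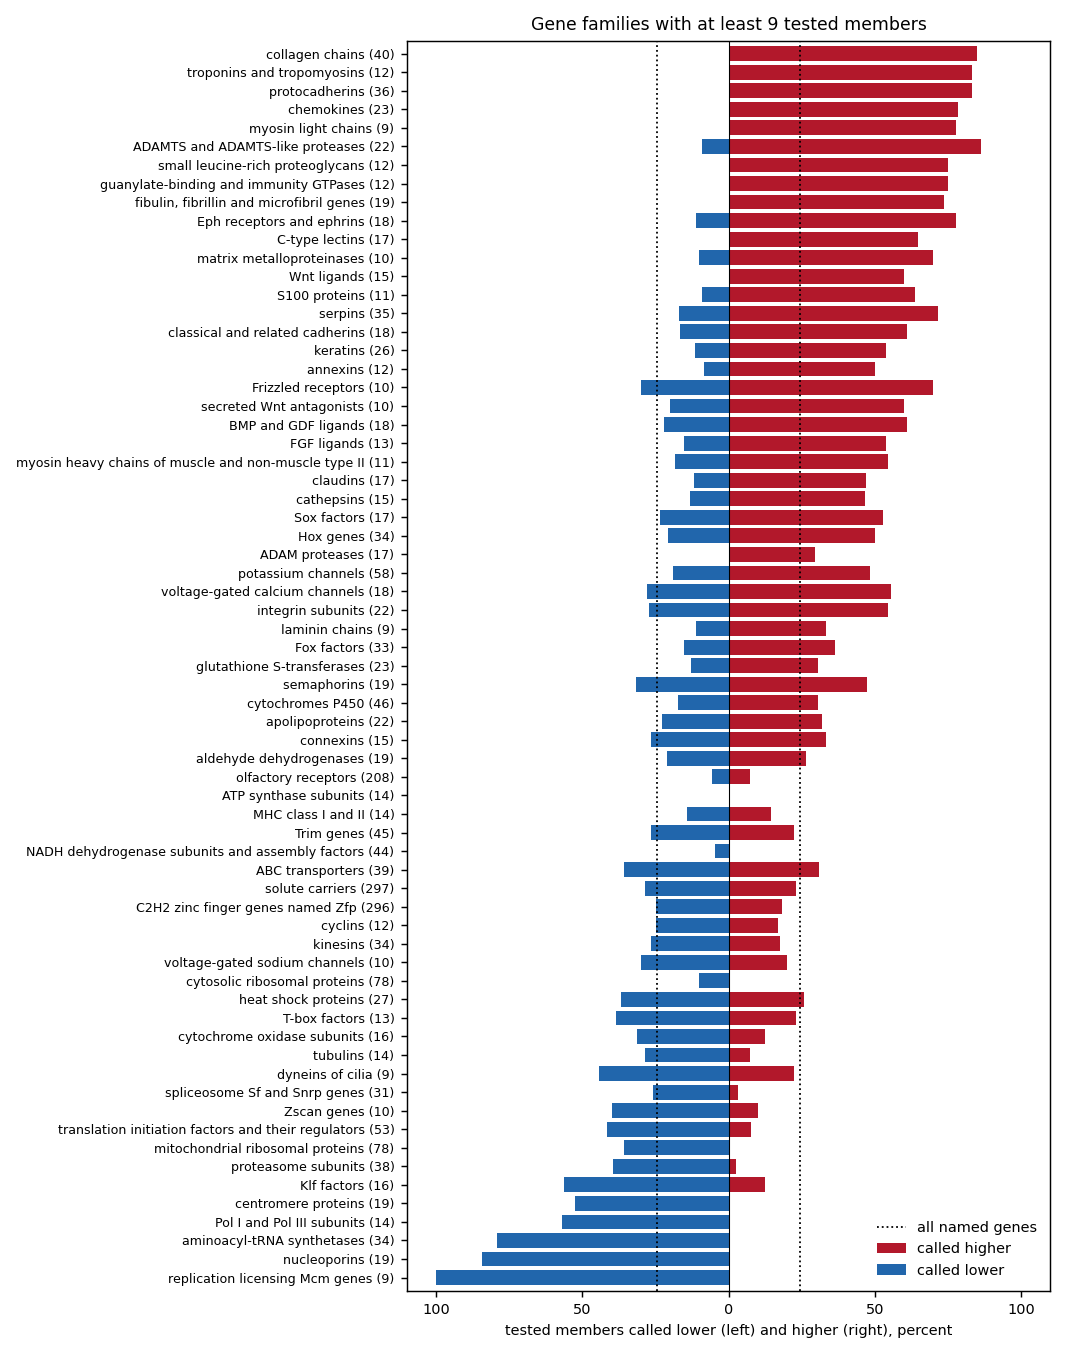
For each gene family with at least 9 tested members (number in brackets), the bar to the right is the percent of tested members called higher at day 14 and the bar to the left the percent called lower, with dotted lines at the shares of all named genes, 24.4% and 24.6%. Collagens, protocadherins, ADAMTS genes, chemokines and troponins lie at the top with no or few members lower. Mcm genes, nucleoporins and tRNA synthetases lie at the bottom with no member higher.

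Cell surface families also moved. Of 36 tested protocadherins, adhesion proteins best known from neurons, 30 rose and none fell, with a median of 3.68. These were 16 of 18 in the beta cluster, 2 of 3 in the alpha cluster, 2 of 4 in the gamma cluster, and 10 of 11 outside the clusters, where Pcdh7 was at least 75.4-fold higher. Genes of a cluster are close copies and may share probes, 21 of the 36 were below background on all mESC arrays, and 19 were called with the normexp background. Among Eph receptors and ephrins 14 of 18 rose and 2 fell, with Epha3 at least 82.9-fold higher and Epha2, high in stem cells, at -2.21. Among cadherins 11 of 18 rose and 3 fell, Cdh2 (N-cadherin) by 4.98. Of 15 connexins 5 rose (33.3%) and 4 fell (26.7%), not far from the shares of all named genes, with changes from -6.63 to 4.43. The beta connexin Gjb5 fell by 4.21, while Gja1 and Gja5, the connexins of heart muscle, rose by 3.09 and 3.44. Of 17 claudins 8 rose (47.1%) and 2 fell (11.8%), with Cldn4 at -4.29. With normexp 3 claudins rose and 2 fell. Of 26 keratins 14 rose and 3 fell.

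Most tested members of several families of innate immunity rose. Of 23 chemokines 18 rose (11 with normexp) and none fell, with a median of 3.59 (0.87 with normexp). Below background on all mESC arrays were 16 of the 23. Cxcl12, made by stromal cells, was at least 496-fold higher, and Ccl2 and Cxcl10 at least 105-fold and 54.2-fold. Fc receptors (6 of 8 higher), C-type lectins (11 of 17, or 6 with normexp) and guanylate-binding and immunity GTPases (9 of 12, or 5 with normexp) had no member lower. Toll-like receptors gave 4 higher and none lower of 6, and Siglec, Trem and Lilr receptors 4 higher and 3 lower of 8. Below background on all mESC arrays were 7 C-type lectins, 6 of the GTPases and 4 Toll-like receptors. Among probes above background on all 8 arrays, 3 chemokines, 3 Fc receptors, 2 C-type lectins, 2 GTPases and no Toll-like receptor rose. Genes of antigen presentation did not follow: of 14 tested genes of MHC class I and II, 2 rose and 2 fell, with a median of 0.04 (-0.28 with median scaling).

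Among contractile families 10 of 12 troponins and tropomyosins and 7 of 9 myosin light chains rose and none fell, while 6 of 11 myosin heavy chains rose and 2 fell. Ion channels moved both ways. Of 58 potassium channel genes 28 rose and 11 fell (14 and 3 with normexp): Kcnj8, the pore of the ATP-sensitive channel of vascular muscle, was at least 442-fold higher, while Kcnj10 fell by 3.76. Of 18 voltage-gated calcium channel genes 10 rose and 5 fell, and of 10 sodium channel genes 2 rose and 3 fell. Very large families had medians near 0. Of 297 solute carriers 68 rose and 85 fell, with a median of -0.01 (0.15 with normexp), and of 296 genes named Zfp 54 rose and 73 fell. Olfactory receptors, chiefly genes of the nasal epithelium, gave 15 higher and 12 lower of 208 tested (7.21% and 5.77%), shares far under those of all named genes.

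Transcription factor families held members of both directions. Of 34 tested Hox genes, which set position along the body axis, 17 rose and 7 fell. With the normexp background 7 rose and 3 fell, and with median scaling 12 rose and 9 fell. In paralogue groups 1 to 4, active in hindbrain and neck, 6 of 10 rose and 2 fell; in groups 5 to 8, of the trunk, 6 of 9 rose and none fell; in groups 9 to 13, of the lumbar region and tail, 5 of 15 rose and 5 fell. By cluster, 9 of 10 tested Hoxb genes rose against none of 5 Hoxc genes. Hoxb3 lay between -7.76 and -7.56 in mESC and between -0.43 and -0.11 at day 14, at least 34.1-fold higher on that probe, with a second probe at 2.64. Hoxb5 and Hoxb6 were at least 17.6-fold and 25.3-fold higher. At the other end Hoxb13 (-5.35), Hoxc13 (-3.25) and Hoxd13 (-2.91) fell, and Hoxc12 fell to below background, at least 10.6-fold; with normexp Hoxc13 (-0.67) and Hoxc12 (-0.56) were not called.

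**Figure D4:**
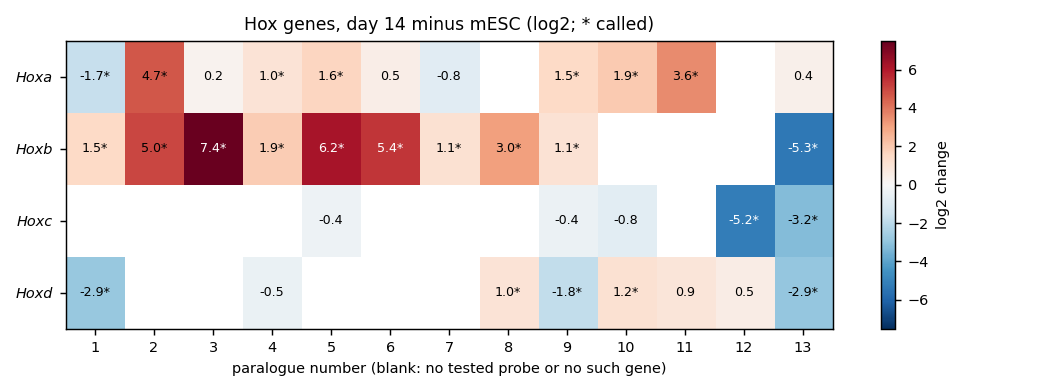
Change of each tested Hox gene, day 14 minus mESC on the log2 scale, by cluster (rows) and paralogue number (columns); red is higher at day 14, blue is lower, and a star marks a called gene. Rises fill the Hoxb row up to number 9, with fitted values from 1.06 to 7.40 (Hoxb1, Hoxb3, Hoxb5, Hoxb6 and Hoxb8 start from below background, and Hoxb1 was above it on 1 day 14 array), and the genes of number 12 and 13 that were called all fell.

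Among Gata factors 4 of 6 rose, Gata4, Gata5 and Gata6 of heart and endoderm and Gata3, whose call was lost without mESC array 1 or 4 or day 14 array 2 or 4 (0.98 to 1.00), while the blood factors Gata1 and Gata2 fell. T-box factors gave 3 higher, the cardiac Tbx2, Tbx5 and Tbx20, and 5 lower, among them Tbx3 (-4.29), which mouse stem cells use in the naive state, and Eomes; with normexp 3 T-box genes were called each way. Of 16 Klf factors 9 fell and 2 rose, all 4 Dppa genes fell, and 5 of 7 Rhox genes fell. Sox factors (9 of 17 higher, 4 lower) and Fox factors (12 of 33 higher, 5 lower) exchanged members: Sox2 fell and Sox11 was at least 69.5-fold higher on its brightest probe, and Foxd3 fell by 3.18 and Foxf2 was at least 9.35-fold higher.

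The machinery of growth fell with modest sizes. Of 34 aminoacyl-tRNA synthetases, which load amino acids for translation, 27 fell and none rose, with a median of -1.53. Of 25 ribosome biogenesis genes 23 fell, led by Dkc1 (-3.23), and 8 of 14 subunits of RNA polymerases I and III and 16 of 19 nucleoporins fell, with none higher. Translation initiation factors fell in 22 of 53 (36 with median scaling) and rose in 4. The ribosomal proteins themselves moved little, with a median of -0.65 and 8 of 78 lower (3 with quantile normalization and 36 with median scaling). The deepest falls among these were Rpl39l (-7.35) and Rpl3l (-4.63), copies with tissue-restricted expression. Of 38 proteasome subunits 15 fell, with the germ cell subunit Psma8 at -7.21, and 1 rose, the immune subunit Psmb8 (4.05); with quantile normalization 1 fell and 2 rose. In mitochondria, 28 of 78 ribosomal proteins fell but only 2 of 44 NADH dehydrogenase genes and none of 14 ATP synthase subunits, with medians of -0.72, -0.32 and -0.24, the last of which was 0.18 with quantile normalization. The mitochondrial ribosomal proteins lower were 18 with quantile normalization and 41 with median scaling, and the NADH dehydrogenase genes lower were 12 with median scaling. The muscle forms Cox8b and Cox6a2 of cytochrome oxidase rose by 6.55 and 2.09.

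All 9 Mcm genes, a group by name that includes the factors that license replication origins, fell, from -1.59 for Mcm6 to -3.13 for Mcm10. Mcm3 lay between 3.65 and 3.82 in mESC and between 1.25 and 1.46 at day 14, and Mcm5 between 5.86 and 5.94 and between 3.58 and 3.70. All 8 Mcm genes with a promoter sequence hold CCAAT, the site of the factor NF-Y, on either strand within 250 bases before the start, as do 35.9% of the tested genes' promoters. The 2 shown, 150 bases before the start from RefSeq on GRCm38.p6, hold it 3 times in Mcm3 (chr1:20820313-20820462 on the minus strand) and 2 times in Mcm5 (chr8:75109359-75109508 on the plus strand), in capitals, with ATTGG for the opposite strand.
Mcm3: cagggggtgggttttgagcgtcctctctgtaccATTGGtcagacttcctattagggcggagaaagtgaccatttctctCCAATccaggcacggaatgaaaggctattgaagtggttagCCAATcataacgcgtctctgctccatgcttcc
Mcm5: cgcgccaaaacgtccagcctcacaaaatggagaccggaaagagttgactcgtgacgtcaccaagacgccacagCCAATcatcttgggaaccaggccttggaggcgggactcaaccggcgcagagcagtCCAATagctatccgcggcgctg
Of 35 cell cycle and replication genes 22 fell and 4 rose. Mki67 (0.26) and Cdk1 (-0.57), which mark dividing cells, were not called. The 4 that rose were the cyclin gene Ccnd2 (6.61 ± 0.08) and the cyclin-dependent kinase inhibitors Cdkn1c (6.89 ± 0.11), Cdkn2b (2.74) and Cdkn2c (2.45).

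Signalling genes were mostly higher. In the TGF-beta and BMP list 27 of 32 tested genes rose and 2 fell, with a median of 2.43. The ligands included Tgfb3 (7.75), Tgfb2 (5.79) and Bmp4 (4.50), the receptors Tgfbr2 (4.99) and Bmpr1a (1.62), the antagonist Grem1 (at least 8.97-fold), and the BMP targets Id1, Id2 and Id3 (5.06, 5.79 and 6.57). In the Wnt list 23 of 34 rose and 3 fell: ligands such as Wnt2 (at least 39.8-fold) and Wnt5a (at least 5.50-fold), the receptor Fzd1 (6.47) and the inhibitors Dkk2 (at least 86.7-fold) and Sfrp2 (6.09). Axin2, the target read as a measure of the canonical pathway, was not called (-0.84), and the nuclear effector Tcf7 fell by 3.62. In the retinoic acid list 16 of 21 rose and none fell, from the synthesis enzymes Aldh1a1 (7.08) and Aldh1a2 (4.89) to the receptor Rarb (6.76) and the degrading enzyme Cyp26b1 (4.58).

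Imprinted growth genes, expressed from 1 parental copy, rose in 14 of 23 and fell in 2. Igf2 lay between -3.14 and -3.02 in mESC and between 7.07 and 7.20 at day 14, a rise of 10.24 ± 0.06, Dlk1 rose by 9.40 ± 0.11, and Nnat by 8.71. Complement and coagulation genes rose in 17 of 21 with none lower, among them Cfi (at least 160-fold) and C3 (5.78). Below background on all mESC arrays were 9 of the 21, which could be tested only through arrays of differentiated cells. Among probes above background on all 8 arrays, 8 of these genes rose. Interferon response genes gave 13 higher and 4 lower of 24, Ifit3 at least 10.5-fold higher and Oas1a at -5.36. Of these 24, 7 were below background on all mESC arrays, and among probes above background on all 8 arrays 2 rose. Of 29 chromatin genes 16 fell and 7 rose: the methylation genes Dnmt3l (-5.42), Tet1 (-2.73) and Dnmt3b (-2.34) fell, and the remodeller genes Smarca2 and Smarca1 rose by 5.31 and 3.91. The switch from epithelium to mesenchyme showed in both directions, with 13 of 24 higher and 7 lower: Snai2 (3.99), Zeb2 (at least 65.7-fold) and Twist2 (at least 68.9-fold) rose and Cdh1, Cldn4 and Grhl2 fell. Metabolic lists moved less. Cholesterol synthesis (2 of 18 higher), lysosome (8 of 29 higher, 2 lower) and glycolysis (8 of 27 higher, 7 lower) had medians of -0.36, 0.40 and -0.08, the last of which was 0.19 with quantile normalization.

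The 4 day 14 arrays were alike over all genes but not for every lineage. The mean level of the cardiac contractile list was 1.73, 2.12, 1.91 and 2.36 on arrays 1 to 4, against -2.97 to -2.67 in mESC. Arrays 2 and 4 were also the highest pair for cardiac channels, neural progenitors and neurons (-2.42, -2.02, -2.37 and -1.97). The pattern was not confined to heart and nerve. It also held, among others, for skeletal muscle (-2.48, -2.19, -2.32 and -2.17) and eye and placode (-2.71, -2.50, -2.56 and -2.28). Lung and thyroid genes showed it too (-5.09, -4.47, -4.65 and -4.42), but only 6 of those 10 were above background on all 4 day 14 arrays. The order was opposite for macrophage genes (0.14, 0.05, 0.21 and -0.07) and parietal endoderm (1.63, 1.32, 1.63 and 1.33). Fibroblast genes (from 2.92 to 3.06), smooth muscle (1.60, 1.68, 1.62 and 1.65) and the mean of all named genes, which spanned 0.04, varied less. Single genes showed the same pairs. Nkx2-5 lay at 0.25, 0.72, 0.38 and 1.03, Hes5, a Notch target of neural progenitors, lay at 0.27, 0.95, 0.64 and 1.42, and Gkn2, a gastric epithelial gene, at 2.78, 1.58, 2.74 and 1.62. Of 7476 named genes with a day 14 mean above 0, 133 spanned at least 0.5 over the 4 arrays; arrays 2 and 4 were the highest pair in 79 of them and arrays 1 and 3 in 23. The labels do not say what arrays 2 and 4 share, and this was not tested.

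**Figure D5:**
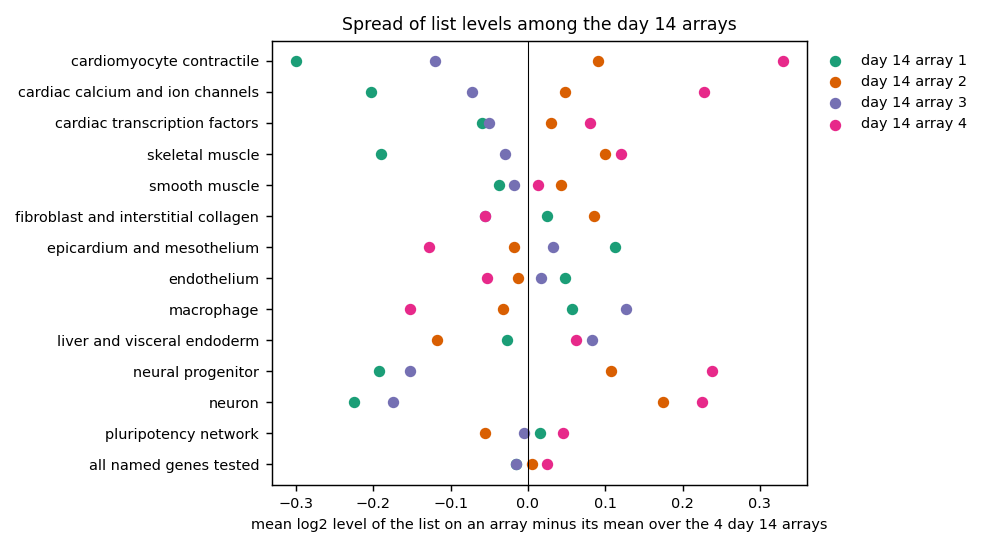
Mean log2 level of 13 gene lists and of all named genes on each day 14 array, minus the mean over the 4 arrays. The cardiac contractile, cardiac channel, neural progenitor and neuron lists have arrays 2 and 4 to the right and arrays 1 and 3 to the left, over a span of 0.62, 0.43, 0.43 and 0.45, while smooth muscle and all genes stay within 0.09.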

How the data were processed

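RNA of 4 mESC, 4 day 9 and 4 day 14 samples was hybridised to 1-colour Agilent arrays, 1 sample an array. The deposited intensities are scanner output: per the file headers, Agilent Feature Extraction 12 gave each spot a processed signal, background-subtracted and not scaled between arrays, together with its median signal, its local background and marks for spots above background or saturated. The series' value table, whose making no source used here describes, held the same values as these processed signals. Its calls were therefore the same by construction, and as an alternative it is no separate check.

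After removal of control spots and of those with an outlier mark, log2 processed signals were set against each array's 75th percentile, and spots of 1 probe were averaged. A probe was tested if well above background on at least 3 of 4 arrays of mESC, day 9 or day 14, and a gene was read from its tested probe of highest mean. Of 41174 probes 28223 carried a gene symbol. The fit used limma 3.58.1 in R 4.3.3 on all 12 arrays, 2-sided, with Benjamini-Hochberg adjustment over all genes, and was tested on simulated data. The number of arrays limits the precision. Where a probe was below background on all arrays of a group, "at least N-fold" sets the other group's mean against, on each dim array, the higher of the probe's own signal and the lowest signal among probes well above background. Fitted values of such genes enter list medians and are no bounds. Array gene names follow the array's own annotation and can be old.

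Lists and families were chosen with earlier results of these data known. Genes named in the text were the 3 defining markers of each list whatever their values, up to 4 called members of each list with the largest change, and the largest rise and fall of each family. The 8 largest changes each way could be named too. A few genes that this rule picks are not reported here. Further named genes were chosen after their values were seen. Families take every gene whose symbol matches a pattern. Promoter sequences are from RefSeq on GRCm38.p6 and were searched for TTTGCAT, the CArG box, GTTAAT and CCAAT on both strands over 250 bases before the start. Alternatives changed the background correction, scaling, filter, probe rule, arrays fitted, variance model and block, or left out 1 array at a time.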

Additional observations from a re-analysis of the deposited data

Results flagged for a closer look

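In 680 groups of 4 arrays (the levels of 296 named genes and the mean levels of 44 lists, in mESC and at day 14), 30 held an array whose gap to the nearest other array, as a share of the group's range, passed Dixon's critical value for groups of that size. Chance gives about 1 in 20 groups. No array held most of them. For many the gap was small on the log2 scale.

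The cases with the widest gaps were in mESC. Alb lay at -4.30 on mESC array 2 against -7.38 to -7.30 on the others (gap 0.974 of the range), and the day 14 levels of 5.62 to 5.79 lay far above all 4. Hba-x lay at -4.72 on mESC array 4 against -7.53 to -7.35 (0.938). Sp7 was higher on mESC array 1, at -2.88 against -3.83 to -3.72 (0.882), and Nr5a1 on mESC array 3, at -3.12 against -3.64 to -3.60 (0.914). Oas1a lay at 1.49 on mESC array 4 against 2.52 to 2.59 (0.938), and Ptn at -7.57 on the same array against -6.67 to -6.60 (0.925). Lum lay at -7.64 on mESC array 2 against -6.50 to -6.28 (0.841), and Cav1 at -6.45 on mESC array 4 against -7.48 to -7.32 (0.841).

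Further genes stood out on mESC array 2: Cryaa (0.937), Hoxd13 (0.921), Fga (0.920), Fetub (0.895), Pln (0.860) and Srf (0.850), and the mean level of the list of the epithelial to mesenchymal switch, at -1.18 against -1.08 to -1.07 (0.909). Apoa1 (0.902), Bmpr1a (0.867), Myl2 (0.847) and Pparg (0.840) did so on mESC array 4, Igf1 (0.900) and Tdh (0.858) on mESC array 1, and Abcc9 (0.830) on mESC array 3. At day 14 the genes were Eng (0.934), Esrrb (0.911), Ooep (0.905), Id2 (0.889) and Actn3 (0.855) on array 4, Bmp4 (0.871) on array 3, Foxa2 (0.843) on array 2 and Mylpf (0.836) on array 1. For Foxa2 the day 14 levels ran from 0.76 on array 2 to 0.99.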

How the results depend on the processing

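All 150 counts of at least 4 called members in a list or family were compared with the value reported. The value table of the series kept them by construction, since it holds the same values. The intensity trend with robust moderation, the fit of only the 8 arrays, no filter and the mean over probes kept them within 1.5 times. Median scaling moved 8 of the 150 by more and quantile normalization 9. Median scaling gave 36 ribosomal proteins (8), 26 proteasome subunits (15), 36 initiation factors (22) and 23 olfactory receptors (12) lower, and 9 olfactory receptors (15) and 4 chromatin genes (7) higher. Quantile normalization gave 3 ribosomal proteins, 1 proteasome subunit, 18 mitochondrial ribosomal proteins (28) and 22 olfactory receptors lower. The normexp background, which raises dim signals, lowered the genes called from 9780 to 5848 (2780 higher and 3068 lower), the neuron genes called higher from 13 to 6 and the protocadherins from 30 to 19. Many list medians shrank with it: chemokines from 3.59 to 0.87, protocadherins from 3.68 to 1.03 and small leucine-rich proteoglycans from 6.12 to 2.41. The macrophage median went from 4.95 to 2.34, cardiac channels from 3.44 to 1.41, liver from 3.91 to 1.75 and fibroblast from 6.19 to 3.91. Others kept their size, such as ribosome biogenesis at -1.99 in both and Mcm genes at -1.83 and -1.81. The normexp background moved 59 of the 150 counts. Among the members higher these included Hox genes (17 to 7), potassium channels (28 to 14), calcium channels (10 to 5), chemokines (18 to 11), serpins (25 to 15), neural progenitor (8 to 4) and bone genes (7 to 3), claudins (8 to 3), keratins (14 to 8), cadherins (11 to 7), C-type lectins (11 to 6), Fox factors (12 to 7) and solute carriers (68 to 43). It lost the calls of 26 named genes: Acan, Bglap, Cdx1, Elf5, Eomes, Gata3, Hbb-bh1, Hoxb1, Hoxb8, Hoxc12, Hoxc13, Isl1, Kcnj10, Klf1, Myog, Neurog2, Nphs1, Pax6, Slc4a1, Spi1, Star, Thy1, Ttn, Utf1, Wnt5a and Xirp2. Of its calls 5686 were calls in the same direction in the fit as reported and none was opposite. Requiring probes above background on all 8 arrays leaves out by construction the genes that were dark in mESC. The genes called higher were then 2581 and the list members called 453, with 10 cardiac transcription factors, 13 fibroblast, 8 macrophage, 10 liver, 7 endothelial and 5 neuron genes, 18 collagens and 4 protocadherins higher.

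Scaling to the median gave 10970 calls, 36.3% of them higher, against 48.6% of 9780. Of the 296 genes named, 253 kept their direction and side of the threshold in every alternative that tested them. The direction reversed for Adipoq (0.08), Gata1 (0.17) and Sox1 (0.17) with normexp and for Cdh11 (7.08) and Rxra (-0.10) with the mean over probes, which disagree in sign for both; for the others the cause was not tested.

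Without 1 array at a time, the genes called ranged from 9675 to 9780, those higher from 4628 to 4762 and those lower from 4952 to 5074. The members called ranged from 684 to 694 in lists and from 1200 to 1222 in families. The higher members ranged from 23 to 25 for contractile genes, 21 to 23 for cardiac transcription factors, 22 to 23 for fibroblast, 24 to 25 for macrophage, 22 to 23 for liver, 11 to 12 for endothelium, 11 to 13 for neuron, 33 to 34 for collagens and 28 to 31 for protocadherins, and were 18 each time for smooth muscle. The lower members were 22 for pluripotency and 27 for tRNA synthetases each time. Lmod2 was called without mESC array 3 (1.73) and Foxe1 without day 14 array 1 (1.32), and Ttn was not called without day 14 array 4 (0.97).

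Replicate numbers are shared between groups, but same-numbered arrays deviated together no more than others (correlations from -0.075 to 0.036). Pairing by number was therefore not seen, but an effect of pairing that is small beside technical spread could be missed. With the replicate number as a block 9780 genes were called, 4751 higher and 5029 lower.

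Signal over background limits the dim genes: 1221 named genes called were below background on all mESC arrays and 320 on all day 14 arrays, so their fitted changes rest on dim signals and are no bounds.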

Other observations

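Outside the lists, genes of vessel wall muscle and pericytes were among the higher genes, and these were chosen after their values were seen. Kcnj8 and its partner Abcc9, the pore and the regulatory subunit of the ATP-sensitive potassium channel, were at least 442-fold and 15.9-fold higher than in mESC. Ednra, the endothelin receptor of vascular muscle, lay between -5.52 and -4.48 in mESC and between 3.32 and 3.45 at day 14, a rise of 8.50 ± 0.18, with another probe at 3.34. The angiotensin receptor gene Agtr2 was at least 33.4-fold higher. Of 7 tested caveolins and cavins, which shape the caveolae of muscle, endothelium and fat, 6 rose and none fell, with a median of 6.42. Secreted factors with very large rises included Ptn, the heparin-binding cytokine pleiotrophin (at least 1940-fold), Mgp, an inhibitor of calcification (at least 1180-fold), and Igf1 (at least 451-fold). None of these groups was tested as a set.

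Some of the deepest falls lay outside the lists, and these genes too were chosen after their values were seen. Ooep and Khdc3, components of the subcortical complex of the egg, fell to between -3.83 and -3.43 and between -5.64 and -5.01, with changes of -8.29 ± 0.24 and -8.31 ± 0.23. Tdh, the threonine dehydrogenase on which mouse stem cells rely, fell by 7.48 ± 0.14, and Spic, a transcription factor gene, fell by 10.21 ± 0.19, the deepest fall in the fit among genes with a symbol. Of 8 Pramel genes 5 fell and none rose, and all 5 tested Xlr genes fell, Xlr by 1.63 and the others by more; both are families of close copies whose probes may be shared. A run of zinc finger genes numbered from Zfp979 to Zfp993 also went down, 7 of 8 tested with none higher and a median of -3.49. Whether the probes of these zinc finger genes also read one another's transcripts was not tested, so they may not be separate readings. Cd3d, a chain of the T cell receptor complex, was well above background on all 4 mESC arrays and on no day 14 array, at least 85.5-fold lower, while Cd3e was not called.

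For some genes the answer depended on the probe. Cdh11, a cadherin of mesenchyme, fell by 1.83 on its brightest probe, but its other probes gave 11.18 and 11.89. The 2 tested probes of Runx1 gave 0.32 and 6.16, those of Ppargc1a 2.56 and 7.62, those of Sall4 -4.89 and -0.79, and those of Rxra 1.60 and -1.80. Whether these probes read different transcripts was not tested.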
